A study of Populus alba x Populus glandulosa with 18 samples.

Results

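Loss of bHLH58 in poplar roots was examined by RNA-seq of a bhlh58 knockout (bhlh58-KO, line 6) against the wild type (WT), with 3 libraries of each. These 6 libraries, chosen by genotype label, belong to a series of 18. All came from root tissue of 84K, the hybrid poplar Populus alba x Populus glandulosa. The other 4 groups, also of 3 libraries each, are a knockout of bHLH151 (bhlh151-KO, line 40), a double knockout (bhlh58/151-KO, line 32), and lines that overexpress bHLH58 (bHLH58-OE, line 20) or bHLH151 (bHLH151-OE, line 17). All groups share the 84K background, and the labels name no treatment, time or plant age. The stated aim of the series was to find genes upstream or downstream in regulation that bear on a root phenotype. Each genotype is a single line, so an effect of the genotype and an effect of the line cannot be told apart. The labels do not state the kind of mutation, the promoter of the overexpression constructs, or whether the 3 libraries came from separate plants. The p-values therefore measure the spread between these libraries, which may be technical.

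The basic helix-loop-helix (bHLH) proteins are a large family of plant transcription factors. They bind DNA as dimers through their basic region, with the helix-loop-helix forming the dimer interface, and many recognise the short E-box motif. Members of the family act in root hair formation, iron uptake, vascular patterning and hormone responses, best known from Arabidopsis. In Arabidopsis, the protein numbered bHLH58 is also known as BEE2, an early brassinosteroid response factor, and that numbered bHLH151 as UPBEAT1, which acts on the balance of proliferation and elongation in the root tip. The labels do not state whether the poplar genes of the same number are their counterparts.

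Expression was given as FPKM, fragments per kilobase of transcript scaled to the mapped fragments of the library. Of 71159 gene IDs in the table, 40951 reached 1 FPKM in 3 or more libraries of the 18 and were tested on log2(FPKM + 1). At that limit, 640 IDs reached 1 FPKM in exactly 3 libraries and were tested, with a median FPKM over all libraries of 0.696, and 821 reached it in exactly 2 and were not tested, with a median of 0.611. Total FPKM ran from 514745 to 522503 in WT and from 526223 to 528194 in bhlh58-KO. Library depth is unknown, because FPKM does not keep it. Pearson correlations of log2 values over tested IDs were 0.983 to 0.987 among the WT libraries, 0.984 to 0.985 among those of bhlh58-KO, and 0.960 to 0.966 between the groups. The table does not pair IDs with gene names. The targeted gene, the tissue markers and the pathway lists could for that reason not be looked up, and IDs are described by their values, by the letters and numbers they carry and by their levels in the other groups. In bulk RNA, fewer cells of a type and less RNA per cell cannot be told apart.

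Loss of bHLH58 came with many small changes and a small number of large ones. By limma with Benjamini-Hochberg adjustment at 0.05, 9158 IDs were called, which is 22.4% of those tested. Of these, 5264 (12.9%) were higher and 3894 (9.51%) lower in the knockout. The size of the excess of higher calls depended on scaling. There were 4730 higher and 4277 lower after rescaling to TPM, and 4720 and 4651 after quantile normalization. The counts moved less when libraries were scaled by median of ratios, to 5081 higher and 3947 lower. The median absolute log2 fold change was 0.47 among called IDs that were higher and 0.45 among those that were lower, beside a median standard error of 0.12. At 1.5-fold or more, 1705 IDs were higher and 1109 lower. At 2-fold or more the numbers were 311 (0.759% of tested IDs) and 197 (0.481%), at 4-fold 27 and 10, and at 8-fold 3 and 1. Folds were computed on log2(FPKM + 1), where the change of an ID of low level is understated: with a pseudocount of 0.1 the counts at 2-fold were 897 and 499. They were 497 and 332 after rescaling to TPM, which makes library totals equal and also raises all values against the fixed pseudocount of 1, and 174 and 113 among IDs with a mean of at least 5 FPKM. The 3 libraries of each group did not overlap in 97.1% of called IDs and in 38.8% of all tested IDs.

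**Figure D1:**
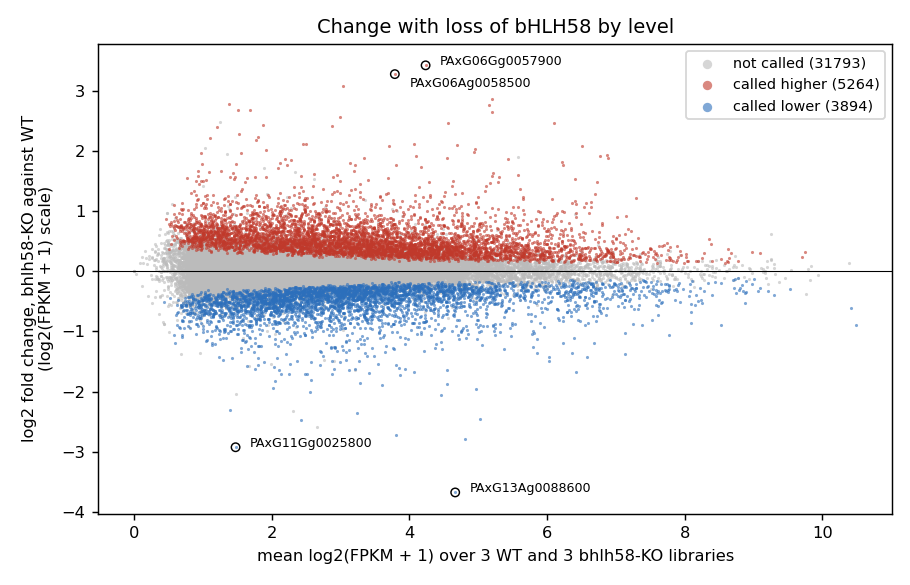
Log2 fold change of bhlh58-KO against WT (vertical axis, log2(FPKM + 1) scale) against the mean log2(FPKM + 1) of the 6 libraries (horizontal axis), 1 point per tested ID, coloured by call. Most called IDs lie within 1 log2 unit of 0; the 4 circled IDs had the largest rises and falls under the naming rule.

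The largest rises were in a pair of IDs that carry the same 2-digit number, 06, with the letters G and A. PAxG06Gg0057900 had 7.91, 2.82 and 4.60 FPKM in WT, against 49.0, 47.3 and 96.6 FPKM in the knockout libraries. The groups did not overlap, and the third knockout library was about double the level of the other two (log2 fold change 3.42, SE 0.44, limma adjusted p = 0.000115). PAxG06Ag0058500 was at 5.11, 2.52 and 3.08 FPKM in WT and at 32.8, 33.6 and 67.3 FPKM in the knockout, again highest in the third library (3.28, SE 0.33, limma adjusted p = 9.71e-06). Without that library the changes were 3.09 and 2.94 on the log2 scale. Both IDs were also high in the other knockouts. PAxG06Gg0057900 was at 70.0 ± 10.2 FPKM (SD, n = 3) in bhlh151-KO and 70.6 ± 21.9 in bhlh58/151-KO, and the direct contrasts with bhlh58-KO were -0.19 and -0.17 on the log2 scale (SE 0.44, limma adjusted p = 0.768 and 0.869). In bHLH58-OE it was near WT, at 6.43 ± 3.64 FPKM, and 3.22 log2 units below bhlh58-KO (SE 0.44, limma adjusted p = 0.000552). The other overexpression line was above WT: in bHLH151-OE, PAxG06Gg0057900 was at 25.9 ± 5.43 FPKM and PAxG06Ag0058500 at 19.8 ± 2.94. The contrasts of bhlh58-KO with that line were 1.22 (SE 0.44, limma adjusted p = 0.0598) and 1.06 (SE 0.33, limma adjusted p = 0.0312).

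The largest falls were in PAxG13Ag0088600 and PAxG11Gg0025800, whose levels in the other lines were unlike each other. PAxG13Ag0088600 was at 79.3, 85.4 and 107 FPKM in WT and at 5.02, 7.31 and 6.19 in bhlh58-KO, a fall in every library (log2 fold change -3.68, SE 0.15, limma adjusted p = 3.47e-11). It was lower in bhlh58-KO than in any other group. PAxG11Gg0025800 was at 7.98, 5.69 and 6.48 FPKM in WT. In bhlh58-KO it was at 0.029 FPKM in the first library and listed at 0 in the others (-2.92, SE 0.13, limma adjusted p = 3.02e-11). The size of this fall depended on the pseudocount: it was -5.96 with a pseudocount of 0.1, where PAxG13Ag0088600 was at -3.86. This ID was also near 0 in bhlh58/151-KO, bhlh151-KO and bHLH58-OE, with means of 0.058, 0.066 and 0.083 FPKM, and at 33.6 ± 4.24 FPKM in bHLH151-OE. Its near absence in bhlh58-KO was thus seen as well in the line that overexpresses bHLH58.

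Ranked by the difference in FPKM, and still only among IDs that changed 2-fold or more, other IDs led. Larger differences in FPKM at smaller folds are given below for the most abundant IDs. PAxG01Ag0145600 rose from 67.7, 50.3 and 64.4 FPKM in WT to 202, 199 and 290 in bhlh58-KO (log2 change of 1.89 with SE 0.19, limma adjusted p = 6.82e-06). NewGene_4102 was at 55.0, 63.3 and 58.7 FPKM in WT and at 221, 239 and 220 in bhlh58-KO (1.93, SE 0.19, limma adjusted p = 4.31e-06). Both sets of knockout values lay well above WT, and those of NewGene_4102 lay close together. The other lines also exceeded WT for NewGene_4102, with means between 103 ± 32.4 FPKM in bhlh151-KO and 187 ± 24.4 in bHLH151-OE.

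The falls named by the same ranking were in PAxG10Gg0050800 and PAxG06Ag0007500. PAxG10Gg0050800 was at 307, 314 and 322 FPKM in WT and at 154, 146 and 150 in bhlh58-KO (log2 change of -1.06 with SE 0.059, limma adjusted p = 8.76e-10). PAxG06Ag0007500 was at 196, 240 and 239 FPKM in WT and at 82.3, 97.2 and 78.9 in the knockout (-1.37, SE 0.11, limma adjusted p = 8.95e-08). The means of the other 4 groups lay between those of WT and bhlh58-KO for both IDs, from 167 ± 5.00 FPKM in bhlh151-KO to 227 ± 6.22 in bHLH151-OE for PAxG10Gg0050800, and from 91.2 ± 11.5 in bhlh58/151-KO to 139 ± 16.1 in bHLH58-OE for PAxG06Ag0007500.

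**Figure D2:**
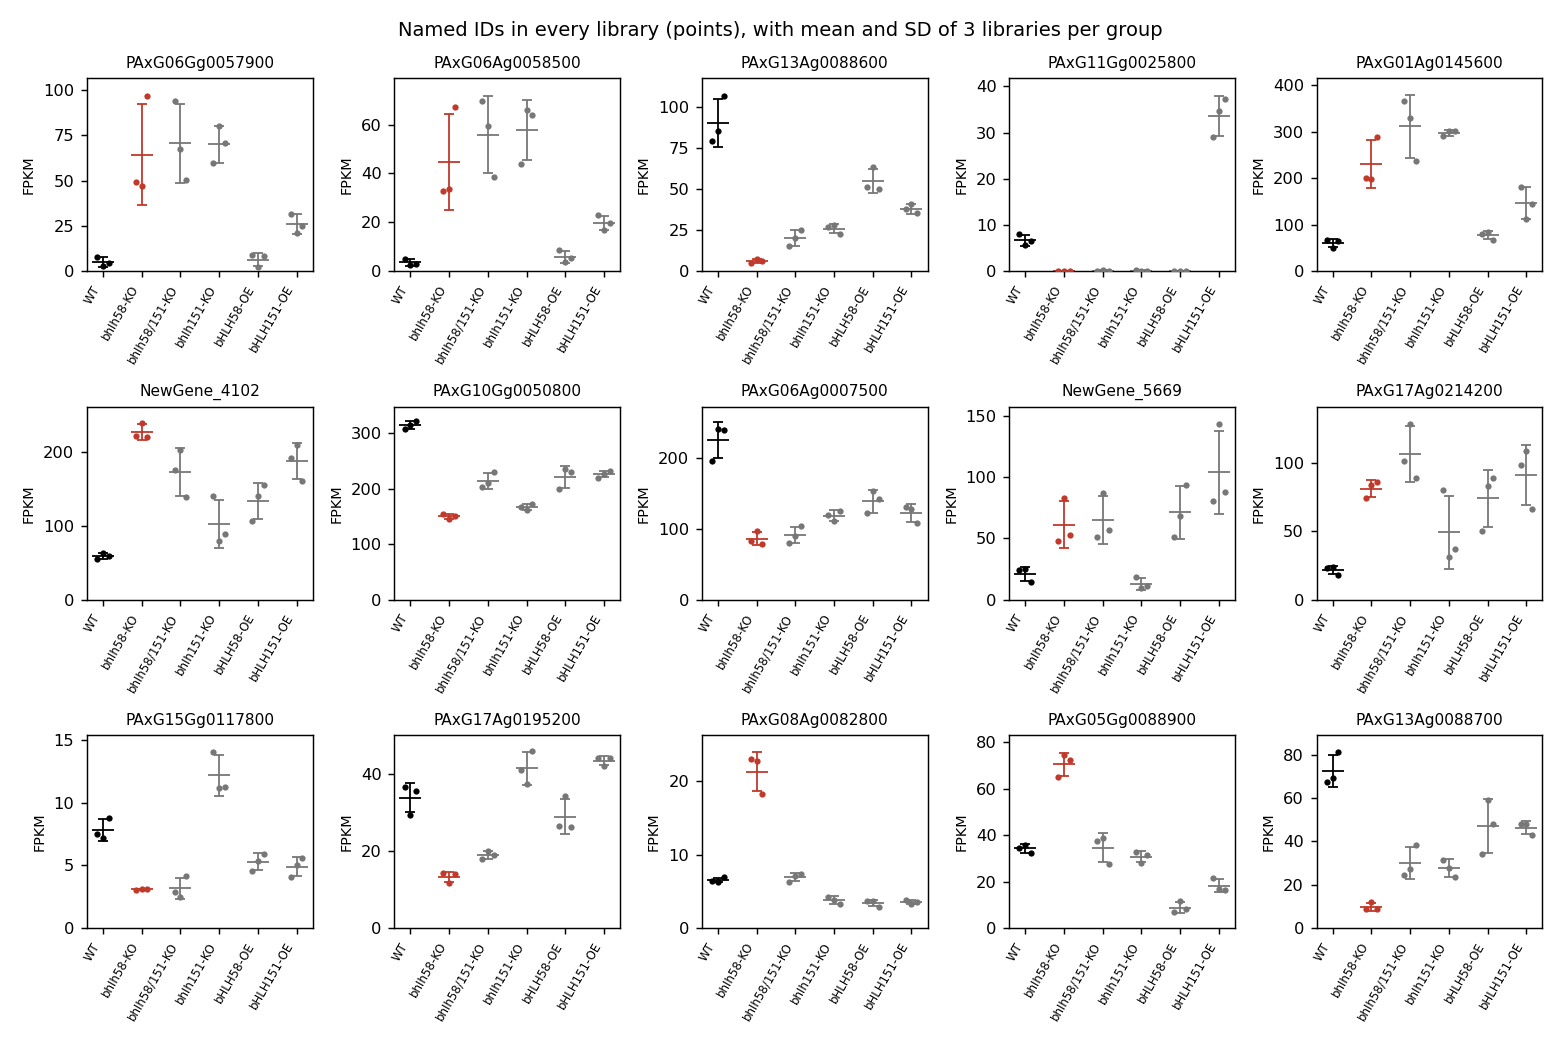
FPKM (vertical axes, from 0) of the 15 named IDs in each of the 18 libraries by group; points are libraries, and bars are the mean and SD of 3 libraries (WT black, bhlh58-KO red, other groups grey). The naming rule required that the WT and bhlh58-KO points do not overlap, as in all 15 panels. The other groups range from the WT level to the knockout level and beyond.

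The 10 IDs with the highest mean over the 18 libraries were mixed: 2 fell, 2 rose and 6 were not called. Over all tested IDs 22.4% were called, while of IDs at 100 FPKM or more 29.3% were higher and 24.0% lower. The IDs that fell were the pair with the highest means, which share the number 08. PAxG08Gg0109500 was at 2059, 1767 and 2088 FPKM in WT and at 1086, 1040 and 1048 in bhlh58-KO (log2 change of -0.89 with SE 0.14, limma adjusted p = 0.000428). PAxG08Ag0113600 was at 1723, 1543 and 1803 FPKM in WT and at 1103, 1130 and 1071 in bhlh58-KO (-0.61, SE 0.12, limma adjusted p = 0.00115). For both IDs every knockout library lay below every WT library. The IDs that rose, PAxG01Gg0294400 and PAxG01Ag0297500, did so by 0.32 and 0.25 log2 units (SE 0.068 and 0.066, limma adjusted p = 0.00219 and 0.0109). For all 4 IDs the means of the other lines lay on the same side of WT as bhlh58-KO. PAxG08Gg0109500 was at 999 FPKM in bhlh151-KO, below its bhlh58-KO mean of 1058. PAxG01Gg0294400 was at 972 FPKM in bHLH58-OE, beside 963 in bhlh58-KO and 772 in WT. These 4 IDs were chosen for their level, outside the naming rule.

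The share of IDs called grew with level. Of 2887 IDs with a mean under 1 FPKM over the 18 libraries, 7.10% were higher and 5.78% lower in bhlh58-KO. Of 4558 IDs at 20 to 100 FPKM, 29.6% were higher and 14.9% lower, and of 724 IDs at 100 FPKM or more, 29.3% were higher and 24.0% lower. The median standard error moved with it, from 0.17 under 1 FPKM to 0.060 at 100 FPKM or more, and its part in the larger share was not tested. The median log2 fold change stayed within 0.08 of 0 in each level class, between -0.019 and 0.079, beside 0.0091 over all tested IDs. IDs of 100 FPKM or more held 28.1% to 29.1% of the tested FPKM in the WT libraries and 27.7% to 27.9% in those of bhlh58-KO, so the groups did not overlap but differed by little.

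**Figure D3:**
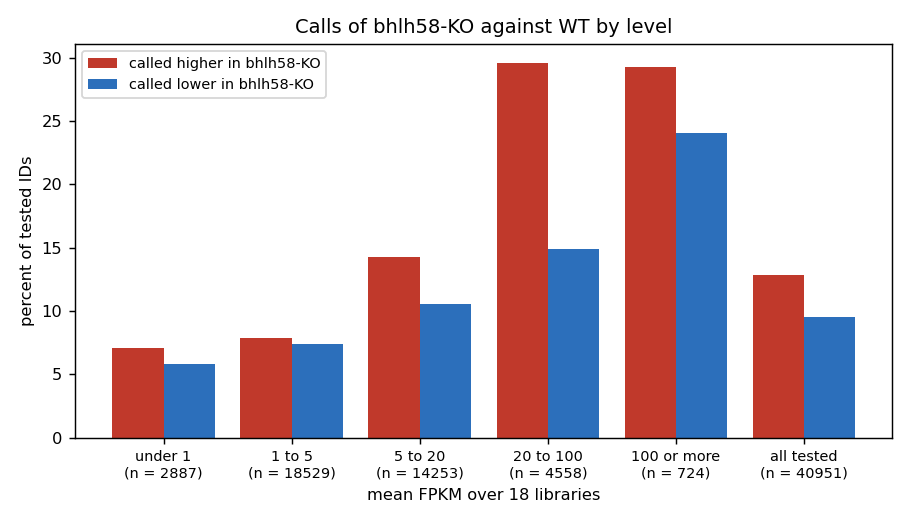
Percent of tested IDs called higher (red) or lower (blue) in bhlh58-KO against WT (vertical axis) by mean FPKM over 18 libraries (horizontal axis, with the number of IDs per class). Calls rise from 7.10% higher and 5.78% lower under 1 FPKM to 29.3% and 24.0% at 100 FPKM or more.

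No ID was at 1 FPKM or more in all 3 WT libraries and listed at 0 in all 3 of bhlh58-KO, while 5 IDs had the reverse pattern. They were named for this pattern after their values were seen. An exact 0 can be a failed estimate, so no fold is given. PAxG15Gg0124300 was at 2.17, 2.71 and 4.00 FPKM in bhlh58-KO and listed at 0 in the 15 other libraries. It passed the filter only through its bhlh58-KO libraries, so its test against WT is not given. PAxG02Ag0067000 was at 6.01, 6.10 and 5.41 FPKM in bhlh58-KO, and PAxG02Ag0067500, with a nearby number, at 3.98, 4.00 and 4.90 (limma adjusted p = 8.47e-10 and 6.17e-10). Both were also detected in bHLH58-OE, at 2.84 to 4.12 and 2.10 to 2.91 FPKM, and in bhlh151-KO, at 0.670 to 1.63 and 0.954 to 1.35 FPKM. In bhlh58/151-KO and bHLH151-OE neither exceeded 0.170 FPKM. NewGene_3253 was at 1.77, 1.62 and 2.42 FPKM in bhlh58-KO. It was also detected in bHLH58-OE, at 1.49, 1.32 and 0.596 FPKM, and in bhlh151-KO, at 0.843, 0.301 and 0.454. Without its bhlh58-KO libraries it would not have passed the filter, so its test is not given either. PAxG04Ag0123800, at 2.74, 5.60 and 1.91 FPKM, was not called (limma adjusted p = 0.123), and its values were uneven in other groups too, from 1.11 to 20.6 FPKM in bhlh151-KO.

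Calls were made among IDs with the letters A and G and among NewGene IDs, while the 6 tested IDs marked Mt, the 7 marked Pt and the 1 marked Un had 0 calls in either direction. Of 19319 tested IDs with the letter A, 13.3% were higher and 9.31% lower, and of 18892 with the letter G, 12.6% and 9.62%. Of 2726 NewGene IDs, 11.6% were higher and 10.2% lower. Across the 38 combinations of a 2-digit number and the letter A or G, the share called higher ran from 9.43% to 15.5%, the share called lower from 7.96% to 11.5%, and the median log2 fold change from -0.023 to 0.034. These ranges lay around the shares over all tested IDs, 12.9% and 9.51%.

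Large changes mostly stood alone, but had a neighbour in number with such a change more often than tested IDs in general. Of 287 IDs with the letter A or G that were higher at 2-fold or more, 15.0% had such an ID beside them among tested IDs of the same number and letter, where 1.49% of all these tested IDs did. Of 181 that were lower at 2-fold or more, 18.8% had one, beside 0.929% of all. For calls of any size the values were 30.9% beside 24.1% for higher IDs and 23.7% beside 17.9% for lower ones. The labels do not say whether neighbouring numbers are near-identical copies that share reads, so these IDs may not be independent.

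The longest run at 2-fold or more held 5 IDs, PAxG17Ag0214100 to PAxG17Ag0214500, with log2 fold changes of 1.77 to 2.09 (limma adjusted p at most 0.00416). The first of them, PAxG17Ag0214100, was at 11.2, 12.9 and 10.6 FPKM in WT and at 44.0, 49.2 and 66.7 in bhlh58-KO. The most abundant, PAxG17Ag0214400, was at 37.5, 41.3 and 40.8 FPKM in WT and at 126, 143 and 147 in the knockout. On both sides the next tested IDs were not called, with log2 fold changes of -0.27 (SE 0.17) and -0.34 (SE 0.17). A run with the same number and the other letter, PAxG17Gg0275000 to PAxG17Gg0275200, held 3 IDs with log2 fold changes of 2.08 to 2.65, and its first ID was at 49.0, 41.9 and 39.0 FPKM in WT and at 167, 192 and 202 in bhlh58-KO. The means of all 8 IDs were above WT in the other lines as well: PAxG17Ag0214400 stood at 84.7 ± 46.6 FPKM in bhlh151-KO, 120 ± 32.4 in bHLH58-OE, 155 ± 43.8 in bHLH151-OE and 176 ± 22.2 in bhlh58/151-KO.

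Falls ran together under the number 10. PAxG10Ag0008200, PAxG10Ag0008300 and PAxG10Ag0008500 fell by 1.49 to 1.71 log2 units (limma adjusted p at most 1.46e-05), and the next tested pair was called lower too, at -0.99 (SE 0.14) and -1.86 (SE 0.19). PAxG10Ag0008500 was at 7.38, 7.83 and 7.75 FPKM in WT and at 0.944, 1.67 and 2.55 in bhlh58-KO. Under the same number with the letter G, 3 IDs from PAxG10Gg0008800 to PAxG10Gg0009700 had log2 fold changes between -1.48 and -1.14 (limma adjusted p at most 0.00224). PAxG10Gg0009700 was at 8.76, 10.8 and 12.8 FPKM in WT and at 3.67, 3.85 and 4.06 in bhlh58-KO. For the 3 IDs of each of these runs the means were below WT in all other lines and lowest in bhlh151-KO. Each was called higher in bhlh58/151-KO than in bhlh151-KO, by 0.72 to 1.66 log2 units (limma adjusted p at most 0.0386). PAxG10Ag0008500 was at 0.666 ± 0.292 FPKM in bhlh151-KO and 3.79 ± 0.553 in bhlh58/151-KO. A further run of rises, PAxG03Ag0157200 to PAxG03Ag0157400, had log2 fold changes of 1.31 to 1.74. Its means were 32.2 to 39.6 FPKM in bhlh58-KO and 8.81 to 14.1 in WT. They were also high in bhlh151-KO, at 31.4 to 39.2 FPKM, and in bhlh58/151-KO, at 37.0 to 45.1. The runs were singled out after their values were seen.

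**Figure D4:**
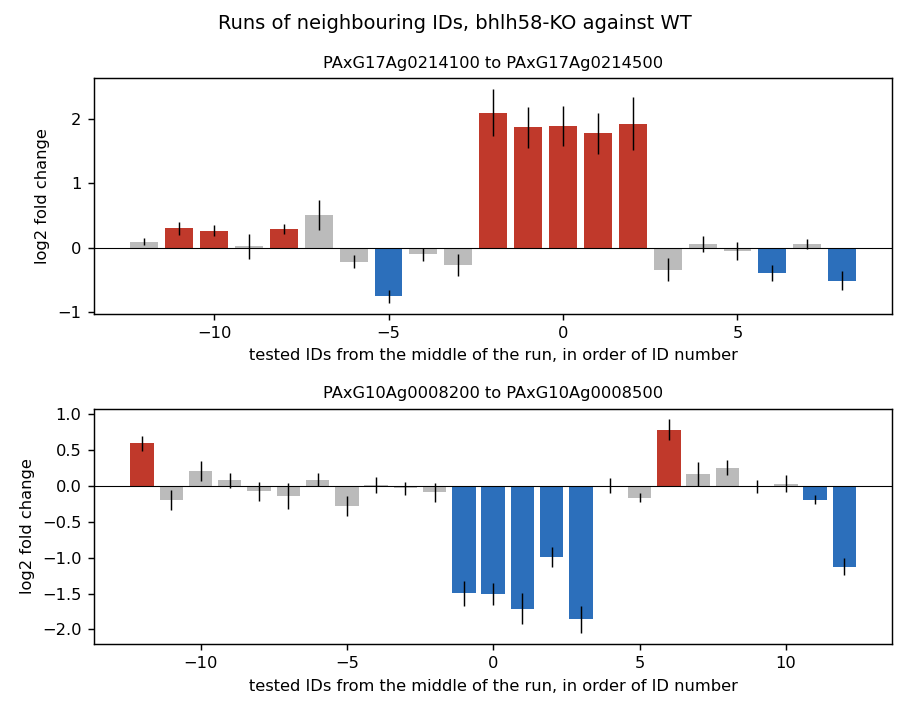
Log2 fold change of bhlh58-KO against WT (vertical axes; bars red or blue where called higher or lower, grey where not called; lines are the standard error) for tested IDs in order of ID number from the middle of the longest run of rises (top) and of falls (bottom). The rises at 1.77 to 2.09 and the falls at -1.49 to -1.71 stop at neighbours that were not called, after the falls continue through the next called pair.

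Large changes also met across the letters. Of the 2-fold rises, 14.3% had a 2-fold rise of the same 2-digit number and the other letter within 1000 in ID number, beside 7.44% of all tested A and G IDs. For falls it was 19.3% beside 4.52%. The sources used here do not say which A and G IDs are counterparts, and this window was chosen after the values were seen.

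A comparison that shares no library with bhlh58-KO against WT bears on the same gene: bhlh58/151-KO against bhlh151-KO, in which bHLH58 is lost where bHLH151 is lost as well. It called 10526 IDs (25.7%), 6419 (15.7%) higher and 4107 (10.0%) lower in the double knockout. This split depended on scaling as well. There were 6144 higher and 4229 lower after rescaling to TPM, 4900 and 5221 under median-of-ratios scaling, and 4803 and 4634 after quantile normalization. Across the 40951 tested IDs the log2 fold changes of the 2 comparisons had a Pearson correlation of -0.18 and a Spearman correlation of -0.19. IDs are not independent replicates, and all points come from the same 12 libraries. Of the IDs called in both, 998 had the same direction, which is 10.9% of the calls of bhlh58-KO against WT and 9.48% of those of the other comparison. Opposite directions were found for 2735, which is 29.9% and 26.0% of the calls. Of all tested IDs, 15.7% were higher and 10.0% lower in bhlh58/151-KO against bhlh151-KO. The 10.9% lay between these shares, and the 29.9% above both. In bhlh58-KO against WT the shares were 12.9% and 9.51%, where 9.48% exceeded neither and 26.0% exceeded both. The shares of all tested IDs are no chance level for these counts. Both comparisons come from the same fit, with the same variance estimate per ID. The share called in bhlh58-KO against WT also grew with level. Whether the 998 or the 2735 departed from chance was therefore not tested. Calls in opposite directions did outnumber those in the same direction.

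The opposite group was largest among IDs that fell in bhlh58-KO against WT and were higher in bhlh58/151-KO than in bhlh151-KO, with 1616 IDs, beside 1119 with the reverse pattern. Of the 197 IDs that fell 2-fold or more in bhlh58-KO, 88 (44.7%) were higher in bhlh58/151-KO than in bhlh151-KO, where 15.7% of all tested IDs were, and 18 (9.14%) were lower, where 10.0% were. Of the 311 that rose 2-fold or more, 43 (13.8%) were higher and 42 (13.5%) lower in that comparison. Under median-of-ratios scaling, 42.3% of the falls were higher, beside 12.0% of all tested IDs. The test of the difference between the 2 changes called 12003 IDs (29.3%). The 4 groups differ by line as well as by genotype, and effects of line and of genotype cannot be told apart in either comparison.

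**Figure D5:**
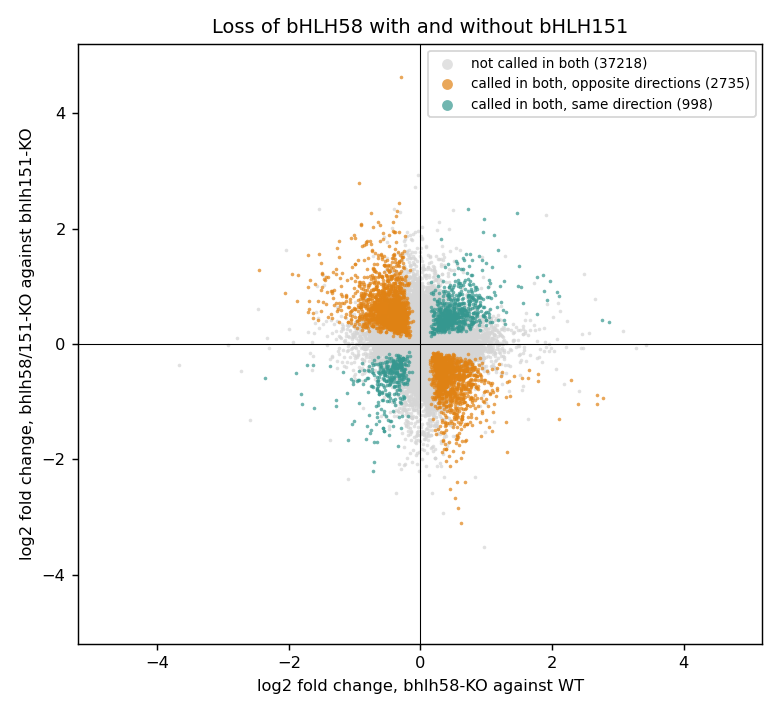
Log2 fold change of bhlh58/151-KO against bhlh151-KO (vertical axis) against that of bhlh58-KO against WT (horizontal axis), 1 point per tested ID; the 2 comparisons share no library. IDs called in both with opposite directions (2735, orange) outnumber those with the same direction (998, teal).

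IDs with a 2-fold change in the same direction in both comparisons, with groups that did not overlap and the higher mean at 5 FPKM or more, were few: 9 higher and 5 lower. NewGene_5669 had the largest rise by the smaller of its 2 changes. It was at 24.1, 25.2 and 14.8 FPKM in WT, at 47.5, 83.0 and 52.5 in bhlh58-KO, at 18.3, 9.59 and 10.9 in bhlh151-KO and at 51.4, 87.4 and 56.9 in bhlh58/151-KO. The changes were 1.47 (SE 0.33, limma adjusted p = 0.00641) and 2.26 (SE 0.33, limma adjusted p = 0.000161). The overexpression lines were likewise high, with 71.3 ± 21.6 FPKM for bHLH58-OE and 104 ± 34.2 for bHLH151-OE. PAxG17Ag0214200, a member of the run of 5 above, was at 23.2, 23.5 and 18.4 FPKM in WT and at 74.1, 83.7 and 85.8 in bhlh58-KO (1.86, SE 0.31, limma adjusted p = 0.000794). In bhlh151-KO it was uneven, at 80.0, 30.9 and 37.4 FPKM, against 101, 129 and 89.3 in bhlh58/151-KO (1.20, SE 0.31, limma adjusted p = 0.0117). That second call ended without replicate 2 (limma adjusted p = 0.0539) or 3 (0.0504) of bhlh151-KO, without replicate 2 of bhlh58/151-KO (0.0517), and in a fit of only these groups (0.0951).

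PAxG15Gg0117800 and PAxG17Ag0195200 were lower with loss of bHLH58 in both comparisons, and the former was also below WT in both overexpression lines. PAxG15Gg0117800 was at 7.49, 7.14 and 8.78 FPKM in WT and at 3.06, 3.12 and 3.11 in bhlh58-KO (log2 change of -1.10 with SE 0.13, limma adjusted p = 9.84e-06). It was at 14.0, 11.2 and 11.3 FPKM in bhlh151-KO and at 2.90, 2.51 and 4.13 in bhlh58/151-KO (-1.67, SE 0.13, limma adjusted p = 1.26e-08). The means of the groups without bHLH58 were 3.10 and 3.18 FPKM, and the direct contrast of these 2 groups was -0.0093 on the log2 scale (SE 0.13, limma adjusted p = 0.979). It was at 5.28 ± 0.667 FPKM in bHLH58-OE and at 4.91 ± 0.749 in bHLH151-OE, beside 7.80 ± 0.863 in WT. PAxG17Ag0195200 was at 36.7, 29.5 and 35.6 FPKM in WT and at 14.2, 11.8 and 14.0 in bhlh58-KO (-1.29, SE 0.10, limma adjusted p = 1.06e-07), and at 41.0, 37.5 and 46.0 in bhlh151-KO and 18.0, 20.0 and 19.1 in bhlh58/151-KO (-1.08, SE 0.10, limma adjusted p = 1.44e-07). Its mean was 29.0 ± 4.53 FPKM for bHLH58-OE and 43.5 ± 1.20 for bHLH151-OE, so both lines that lack bHLH58 lay below the other 4 groups.

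Against each of the other groups in turn, bhlh58-KO differed least from bhlh58/151-KO, with 9.09% of tested IDs called, and from bHLH58-OE, with 9.29%. It differed in 24.9% from bHLH151-OE and in 36.9% from bhlh151-KO. In 189 IDs (0.462%) bhlh58-KO was higher than all 5 other groups, and in 91 (0.222%) it was lower than all 5, each by 5 calls. The same counts were 170 and 63 for bhlh58/151-KO, 27 and 88 for bHLH58-OE, 113 and 124 for bHLH151-OE, 384 and 543 for WT, and 1741 and 2726 for bhlh151-KO. The counts for bhlh58-KO depended on scaling and on single libraries. They were 123 and 144 under median-of-ratios scaling, 115 and 59 without bhlh58-KO replicate 2, and the count of higher IDs was 117 without bhlh58-KO replicate 3 and 123 without bHLH58-OE replicate 3. The 5 contrasts share the 3 libraries of bhlh58-KO. At 2-fold or more in each of the 5, 6 IDs were higher and 4 lower.

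Where bhlh58-KO averaged 5 FPKM or more, PAxG08Ag0082800 stood furthest above the other groups, by the smallest of its 5 contrasts. It was at 6.47, 6.28 and 6.91 FPKM in WT and at 23.0, 22.7 and 18.3 in bhlh58-KO (log2 change of 1.56 with SE 0.11, limma adjusted p = 1.50e-08). It was at 6.92 ± 0.529 FPKM in bhlh58/151-KO, 3.83 ± 0.507 in bhlh151-KO, 3.41 ± 0.450 in bHLH58-OE and 3.54 ± 0.273 in bHLH151-OE. The smallest of the 5 contrasts, with bhlh58/151-KO, was 1.49 (SE 0.11, limma adjusted p = 8.19e-08). PAxG05Gg0088900 was at 34.5, 35.9 and 32.3 FPKM in WT and at 64.9, 74.5 and 72.2 in bhlh58-KO (1.02, SE 0.15, limma adjusted p = 6.14e-05). It was lowest in bHLH58-OE, at 6.83, 11.6 and 8.13 FPKM, which is 2.89 log2 units below bhlh58-KO (SE 0.15, limma adjusted p = 3.67e-10). It was also below WT in bHLH151-OE, at 18.2 ± 2.82 FPKM. In bhlh58/151-KO, which lacks bHLH58 too, it was at 34.6 ± 6.12 FPKM, beside a WT mean of 34.3 ± 1.79.

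Where WT averaged 5 FPKM or more, the IDs furthest below all other groups were neighbours in number, PAxG13Ag0088600, described above, and PAxG13Ag0088700. PAxG13Ag0088700 was at 67.3, 69.1 and 81.0 FPKM in WT and at 8.77, 11.8 and 8.62 in bhlh58-KO (log2 change of -2.78 with SE 0.18, limma adjusted p = 1.84e-08). For PAxG13Ag0088600 the other groups ran from 20.3 ± 4.99 FPKM in bhlh58/151-KO through 26.0 ± 2.86 in bhlh151-KO and 38.0 ± 2.91 in bHLH151-OE to 55.1 ± 7.42 in bHLH58-OE. For PAxG13Ag0088700 they ran from 27.7 ± 4.05 in bhlh151-KO and 30.1 ± 7.49 in bhlh58/151-KO to 46.3 ± 3.00 in bHLH151-OE and 47.1 ± 12.3 in bHLH58-OE. The means of the 5 lines lay below WT for both IDs, and bhlh58-KO lay lowest. The contrasts of bhlh58-KO with the double knockout were -1.56 and -1.52 on the log2 scale (SE 0.15 and 0.18, limma adjusted p = 5.69e-06 and 3.95e-05), although bHLH58 is lost in both.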

How the data were processed

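Root RNA was extracted with an RNAprep kit and sequenced from NEBNext Ultra libraries, per the labels' protocols. The authors deposited FPKM values per gene ID and library. DESeq2 is named, without version or role, per the submitters' processing notes. For aligner, quantifier, genome build and annotation: not given in the sources used here. Ratios of values under 0.3 FPKM in 153 library pairs showed no whole-read steps (at most 1.58% of ratios in a bin of 0.02 log2 units), so no counts were recovered and depth is unknown.

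All 18 libraries entered 1 limma fit on log2(FPKM + 1) with 6 group means, leaving 12 residual degrees of freedom (limma 3.58.1, R 4.3.3, trended and robust eBayes); p-values were adjusted by Benjamini-Hochberg over 40951 IDs within each contrast. The procedure was tested on simulated data. Tables and figures used pandas 2.3.3 and matplotlib 3.10.9. The comparison, the lists and the rules were chosen with earlier results of these data known. The 14 marker and pathway lists matched 0 IDs. Named IDs were at most 2 that rose and 2 that fell per question: called, 2-fold or more, groups not overlapping, the higher group's mean at 5 FPKM or more, ranked by log2 fold change, by FPKM difference, by the smaller change in both backgrounds, and by the smallest of the 5 contrasts. Level classes use the mean over 18 libraries in place of the planned WT mean, since WT values enter the contrast.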

Additional observations from a re-analysis of the deposited data

Results flagged for a closer look

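The change with loss of bHLH58 differed between the WT background and the bhlh151-KO background, by a limma test of the difference itself, in 12003 IDs. The values below are the log2 change of bhlh58-KO against WT less that of bhlh58/151-KO against bhlh151-KO, for the named IDs that passed this test. These IDs were named for large contrasts of bhlh58-KO, which also enter this difference. The choice favoured large values here, so they are no separate support.

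Among IDs higher in bhlh58-KO, the difference was 3.45 for PAxG06Gg0057900 (limma adjusted p = 0.000914) and 3.34 for PAxG06Ag0058500 (limma adjusted p = 7.92e-05). It was 1.85 for PAxG01Ag0145600, 1.16 for NewGene_4102, 0.84 for PAxG08Ag0082800 and 0.87 for PAxG05Gg0088900. NewGene_4102 and PAxG08Ag0082800 were also called higher in bhlh58/151-KO than in bhlh151-KO, by 0.77 and 0.72 log2 units (limma adjusted p = 0.00642 and 3.67e-05). The others of these IDs were not called in that comparison. PAxG06Gg0057900, PAxG06Ag0058500 and PAxG01Ag0145600 were above WT in all 3 knockouts, at mean levels of 44.6 FPKM or more, and also in bHLH151-OE, at 25.9, 19.8 and 147 FPKM beside 5.11, 3.57 and 60.8 FPKM in WT.

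Among IDs lower in bhlh58-KO, the difference was -3.32 for PAxG13Ag0088600 (limma adjusted p = 1.50e-09), -2.91 for PAxG11Gg0025800 (limma adjusted p = 3.62e-10) and -2.88 for PAxG13Ag0088700 (limma adjusted p = 1.18e-07). PAxG11Gg0025800 was already at a mean of 0.066 FPKM in bhlh151-KO, where it had no room to fall. The difference was -1.42 for PAxG10Gg0050800 and -0.99 for PAxG06Ag0007500. In bhlh58/151-KO against bhlh151-KO, PAxG10Gg0050800 was called higher, by 0.36 log2 units (limma adjusted p = 0.000111). PAxG06Ag0007500 was called lower there too, at -0.38 (limma adjusted p = 0.0140). PAxG15Gg0117800 fell more in the bhlh151-KO background, by a difference of 0.57 (limma adjusted p = 0.0296). Groups of 3 libraries were not searched for outlying libraries.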

How the results depend on the processing

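The count of called IDs for bhlh58-KO against WT was 6490 to 9371 under the alternatives other than leaving out a library and 6953 to 7574 with a library left out. Counts at 2-fold or more moved most: 897 higher and 499 lower with a pseudocount of 0.1, 497 and 332 after rescaling to TPM, which also raises values against the pseudocount, and 174 and 113 with a mean of at least 5 FPKM, where fewer IDs were tested. With a library left out they were 300 to 366 and 204 to 235. IDs above or below all 5 other groups numbered 123 and 144 under median-of-ratios scaling, and 115 to 206 and 59 to 92 with a library left out; the cause was not tested. Same-direction calls in both backgrounds ran from 749 to 943 with a library left out and opposite ones from 2179 to 2532. Of the 15 IDs named by rule, none changed direction in the contrasts recomputed, and only the call of PAxG17Ag0214200 in bhlh58/151-KO against bhlh151-KO was lost, in 4 alternatives. The IDs listed at 0 in WT, the other members of runs, the abundant IDs and the per-ID differences between backgrounds were not recomputed.

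The replicate numbers of the labels do not pair the libraries: in 6 pairs with the same number the deviations from group means correlated at -0.048 to 0.027, and 0 of the 6 libraries correlated best with their own number. With the replicate block, 9000 IDs were called in bhlh58-KO against WT. FPKM without depth leaves the counting error of low IDs unknown.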

Other observations

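IDs with the number 11 and the letter G were seldom measured. Of 1393 such IDs in the table, 24.3% passed the filter, beside 50.1% to 63.1% in the other 37 combinations of number and letter, and 37.5% were listed at 0 in all 18 libraries, beside 12.3% to 23.5%. PAxG11Gg0025800, which fell in bhlh58-KO, is among them.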
